A study of Mus musculus with 4 samples.

Results

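miR-199b and miR-214 were examined on mouse miRNA arrays of B104 cells by way of 3 array names, mmu-miR-199b, mmu-miR-199b* and mmu-miR-214, out of 577 names on the array, of which 567 are mouse miRNAs. The names were taken by exact match, and the hairpin of miR-199b was chosen from the measured change itself, since both of its arms were already known to be among the largest falls after knockdown of RBM3. The change of its arms is therefore given as a description, with no test. Of the 3 names, 2 were detected on every array (mmu-miR-199b and mmu-miR-199b*), and mmu-miR-214 was detected on none.

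B104 is a clonal neuroblastoma cell line. The labels give mouse as the organism, although the line is known as one from a rat tumour, so the names and probes are those of a mouse design. The control group was mock transfected and received no siRNA (0 nM), and the knockdown group received an siRNA duplex against RBM3, a cold-inducible RNA-binding protein, at 20 nM with a cationic lipid reagent; both were harvested after 48 h, and each group had 2 arrays. A mock transfection carries no siRNA, so an effect of the siRNA itself cannot be told apart from loss of RBM3, and RBM3 is not measured by an array of miRNAs.

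All 4 arrays were hybridised on 1 slide and no spot was saturated. Between 177 and 190 mouse miRNAs were detected on the control arrays and between 147 and 162 on the knockdown arrays. For the 130 miRNAs that every array detected, the median signal was 375 and 421 in control cells and 94.2 and 92.4 after knockdown. The 5 probes that the files mark as positive controls were dimmer on the knockdown arrays as well, by log2 changes from -1.57 to -0.691; the files used here do not say what RNA they read. Of the neural miRNAs listed as markers, 3 of 10 were detected on every array and miR-124, miR-137 and miR-138 on none. The others, miR-7a, miR-132, miR-218 and miR-219, were detected on some arrays only and had higher signals in control cells. All 4 muscle miRNAs were detected on every array. None of the 4 mesenchymal, 6 blood, 6 epithelial and 1 liver markers was detected. The mesenchymal markers include miR-214, itself a member, and its relative miR-199a-5p, so they are not a separate check on the members. The parts that array brightness and cell identity have in the results below were not tested.

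miRNAs are cut from hairpin precursors by Drosha and Dicer, and either arm of the hairpin can be loaded into Argonaute to repress messages that match its seed, the bases near its 5′ end. The star in a name marks the arm that was taken as the lesser product when the hairpin was named. The miR-199 and miR-214 hairpins lie in genes for dynamins, the GTPases of membrane fission. miR-214 and one of the miR-199a hairpins come from Dnm3os, a long noncoding transcript of embryonic mesenchyme that the transcription factor Twist1 switches on. miR-199b is known for raising calcineurin and NFAT signalling in the mouse heart through Dyrk1a.

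The RefSeq entries for these hairpins (build GRCm38.p6) are shown because they decide which hairpin a signal can come from. Mir199b lies within Dnm1 on chromosome 2, Mir199a-1 within Dnm2 on chromosome 9, and Mir199a-2 and Mir214 within both Dnm3 and Dnm3os on chromosome 1, 5.44 kb apart. These placements are by position alone, and the strands of hairpin and gene were not compared. Mature sequences were matched for 5 arm names and are given 5′ to 3′ with the seed, bases 2 to 8, in capitals. The miR-199a arms are encoded by both miR-199a hairpins, and only their chromosome 9 sites are printed. In Mir199a-2 on chromosome 1, miR-199a-3p lies at 162217883-162217904 and miR-199a-5p at 162217844-162217866, both on the plus strand.
mmu-miR-199b-3p (chr2:32318524-32318545, plus strand): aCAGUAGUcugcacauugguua
mmu-miR-199a-3p (chr9:21496498-21496519, minus strand): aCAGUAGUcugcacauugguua
mmu-miR-199a-5p (chr9:21496537-21496559, minus strand): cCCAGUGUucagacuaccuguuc
mmu-miR-214-3p (chr1:162223438-162223459, plus strand): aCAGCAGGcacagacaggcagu
mmu-miR-214-5p (chr1:162223397-162223418, plus strand): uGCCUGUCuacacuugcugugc
The mature miR-199b-3p and miR-199a-3p are identical over all 22 bases, so a probe for one cannot distinguish it from the other. Only these 2 names, of 1679 mature names in the table, carry their seed. The seed of miR-214-3p is different, and was shared with miR-761 alone. mmu-miR-199b-5p was not matched. The array uses older names that do not state the arm of miR-199b, so mmu-miR-199b and mmu-miR-199b* are called here as the array calls them.

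Both arms of miR-199b gave clear signals in control cells and fell to under 10% of these after knockdown, whereas miR-214 gave no signal above background in either group. mmu-miR-199b had total signals of 478 ± 35.1 and 579 ± 42.0 in control cells and 53.1 ± 6.79 and 43.6 ± 5.97 after knockdown, each with the error that the extraction software gives, in arbitrary intensity units and with no scaling between arrays. The lower control array was 9.01 times the higher knockdown array. A lower signal after knockdown was common, as 77.1% of the 214 miRNAs tested were called lower (adjusted p under 0.05, limma). Since the hairpin was chosen for its fall, nothing is read from the separation of the groups. The group means were 529 ± 71.3 (SD, n = 2) and 48.3 ± 6.70 (SD, n = 2), so that 9.14% of the control signal remained, a 10.9-fold fall.

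mmu-miR-199b* behaved alike, with 478 ± 34.8 and 593 ± 42.7 in control cells and 47.4 ± 6.55 and 39.5 ± 5.75 in knockdown cells. The lower control array was 10.1 times the higher knockdown array. The means of 536 ± 81.5 and 43.4 ± 5.59 (SD, n = 2 each) left 8.10% of the control signal, a 12.3-fold fall. Replicates within a group differed far less than the groups: the higher array was 1.21 and 1.24 times the lower in control cells, for mmu-miR-199b and mmu-miR-199b* respectively, and 1.22 and 1.20 times the lower in knockdown cells. Over the 130 miRNAs detected on every array the median of this ratio was 1.13 in control and 1.05 in knockdown cells.

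**Figure D1:**
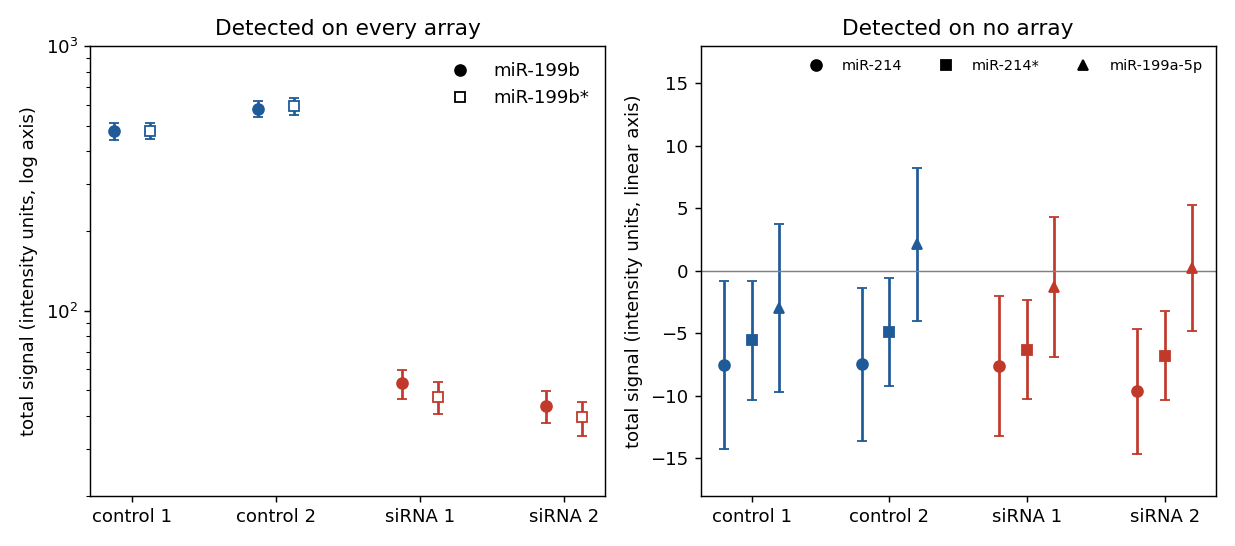
Total signal (intensity units) per array, with bars for the error given by the extraction software, control arrays in blue and RBM3 siRNA arrays in red. On the left, on a log axis, both miR-199b arms lie between 478 and 593 on the control arrays and between 39.5 and 53.1 on the knockdown arrays; on the right, on a linear axis, miR-214, miR-214* and miR-199a-5p lie near or below 0 on all 4 arrays.

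The fall of the arms was seen in each of their probes. Each arm was read by 2 probes of 10 spots, and all 20 control spots of every probe were brighter than all 20 knockdown spots. The spots are repeats within 2 arrays per group, not separate samples. For mmu-miR-199b, probe A_54_P2380 gave mean spot signals of 284 and 348 in control cells and 32.4 and 23.9 after knockdown. Its dimmest control spot was at 246 and its brightest knockdown spot at 38.2. Probe A_54_P2381 gave 415 and 495 in control and 47.5 and 41.8 in knockdown cells, and the closest spots of the groups were at 358 and 57.2.

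For mmu-miR-199b*, probe A_54_P3538 gave 303 and 380 in control cells and 31.6 and 26.3 after knockdown. Probe A_54_P3539 gave 388 and 476 before and 40.4 and 34.1 after it. The log2 change per probe, with no scaling, was -3.50 and -3.35 for mmu-miR-199b and -3.56 and -3.53 for mmu-miR-199b*. The probes of an arm thus differed by much less than the groups. The software marked 1 or 2 spots of mmu-miR-199b* per array as outliers and none of mmu-miR-199b, and all spots are kept in these probe values.

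After knockdown the signals were close to the range where spots are no longer called above background. All 20 spots of each arm were well above background on both control arrays. On the knockdown arrays this held for 18 and 13 of the 20 spots of mmu-miR-199b and for 15 and 15 of mmu-miR-199b*. The spot SD was 4.29% to 8.47% of the mean in control cells and 10.4% to 30.4% in knockdown cells, with the largest value for A_54_P2380 on knockdown array 2. The total signal was still 6.86 to 7.82 times its error there, against 13.6 to 13.9 times in control cells, so the knockdown levels are less precise than the control levels.

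**Figure D2:**
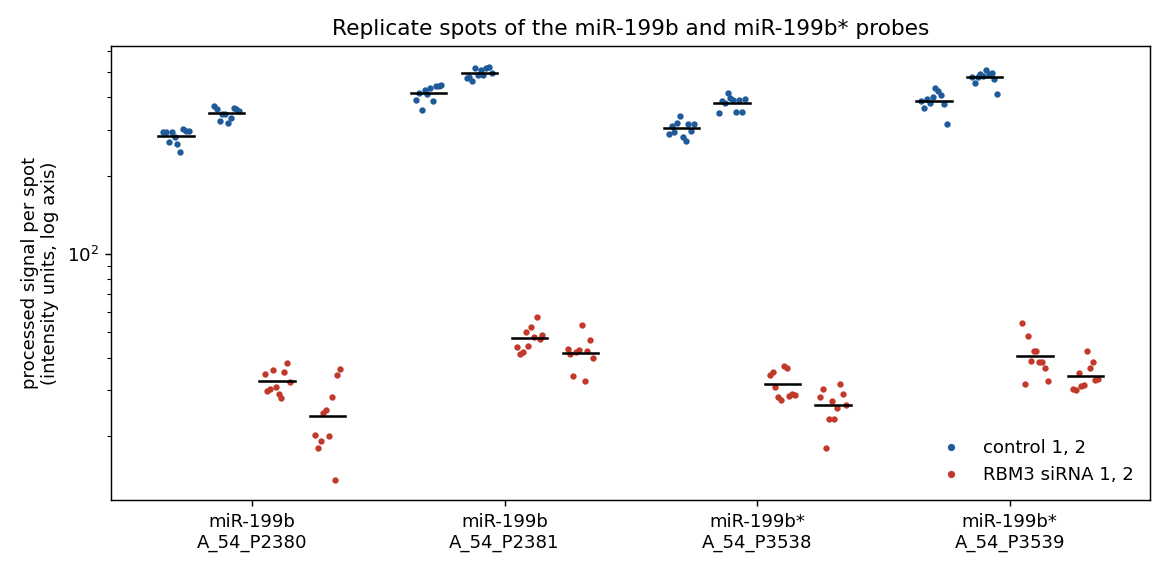
Processed signal of every spot (intensity units, log axis) for the 2 probes of mmu-miR-199b and the 2 probes of mmu-miR-199b*, with a column of 10 spots for each array (control 1, control 2, RBM3 siRNA 1, RBM3 siRNA 2) and a black line at the mean. In each probe all 20 control spots (blue) lie above all 20 knockdown spots (red), and A_54_P2380 spreads most on knockdown array 2.

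mmu-miR-214, the member known from mesenchyme, had total signals of -7.56 and -7.49 in control cells and -7.58 and -9.64 after knockdown, where a signal below 0 means a spot dimmer than its estimated background. All 4 arrays lay below 0, and none of the 20 spots per array was well above background. The errors of these totals were 5.01 to 6.72, so each lay within 2 of its errors of 0. No fold change is given, because neither group was above background, and a change of miR-214 was not detectable at this brightness.

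The relatives of the members on the array were at background too. mmu-miR-214*, from the other arm of the miR-214 hairpin, had total signals between -6.80 and -4.88 over the 4 arrays. mmu-miR-199a-5p, from the paralogous miR-199a hairpins, gave -2.95 and 2.11 in control cells and -1.26 and 0.224 in knockdown cells. So of the 2 relatives 0 were detected on any array, while both arms of miR-199b were detected on all 4. miR-199a-3p was not among the names analysed here. As its sequence is that of miR-199b-3p, the signal of that arm cannot be told apart from it by sequence.

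Most miRNAs lost signal after knockdown, and the arms of miR-199b lost more than most. Over the 130 miRNAs detected on every array a median of 21.8% of the control signal remained. Only 5 of these kept under 10%: miR-532-3p with 7.02%, mmu-miR-199b* with 8.10%, mmu-miR-199b with 9.14%, miR-125b-5p with 9.39% and miR-125a-5p with 9.72%. The next in this order was miR-374, with 12.0%. The value of miR-532-3p rests on knockdown signals of only 6.49 and 3.56. miRNAs not detected on every array are left out of this count, and some of them fell as far or farther. For example, miR-193b went from 70.3 and 73.4 in control cells to 3.85 and 4.33 after knockdown. The members stand among these 5 because the hairpin was chosen from the largest falls.

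Signals can also be set against the array they come from. Divided by the median of those 130 miRNAs on the same array, mmu-miR-199b stood at 1.27 and 1.37 in control cells and at 0.563 and 0.472 after knockdown. mmu-miR-199b* stood at 1.27 and 1.41 in control cells and at 0.503 and 0.427 in knockdown cells. On this scale the arms fell relative to the other miRNAs of their own array, and by less than in the unscaled signal. As a difference in log2 signal from the mean of the positive control probes, mmu-miR-199b lay at -6.44 and -6.31 in control cells and at -8.54 and -8.79 after knockdown. For mmu-miR-199b* these differences were -6.44 and -6.27 in control and -8.71 and -8.94 in knockdown cells.

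A fit over all detected miRNAs, on log2 of the total signal plus 20 after scale normalization, placed the arms near the lower end of all changes. The log2 change was -2.82 for mmu-miR-199b and -2.95 for mmu-miR-199b*, with standard errors of 0.114 and 0.115 from limma. These are the third and the second largest falls among 214 miRNAs, whose median change was -1.22, after miR-125b-5p with -3.11. This rank moved with the treatment of the signal. Of all miRNAs tested, 77.1% were called lower (adjusted p under 0.05, limma). Both arms are in that count, and since they were chosen on this contrast their calls are no test of them and nothing is read from them. mmu-miR-214 was not among the 214, which had to be detected on at least 1 array. Adding 20 and the scaling both make these changes smaller than those in signal. They were -3.00 and -3.13 with the offset and no scaling. With no offset and no scaling they were -3.45 and -3.62 on the log2 scale. The small standard errors rest on a spread that limma shares between miRNAs, since the fit with the replicate number as a block leaves 1 residual degree of freedom.

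**Figure D3:**
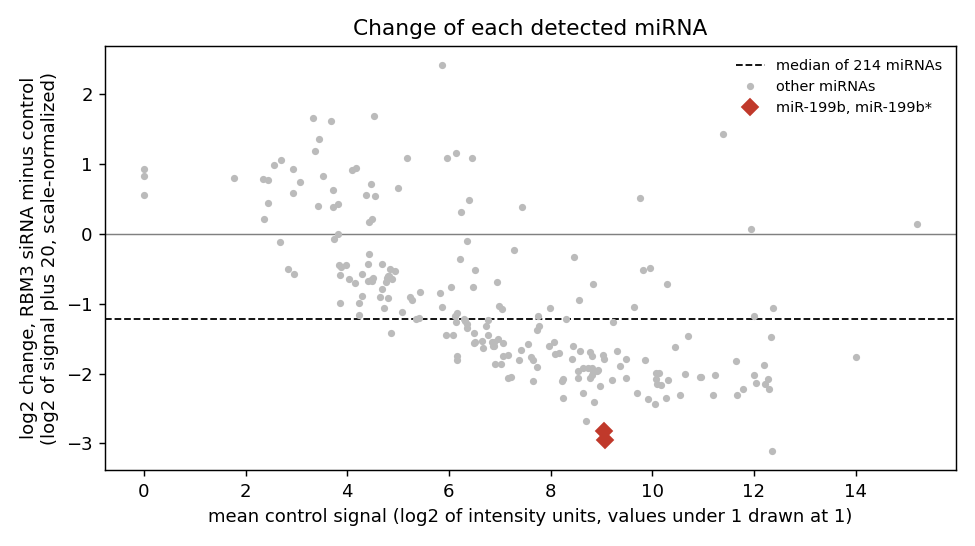
Log2 change (RBM3 siRNA minus control, log2 of signal plus 20, scale-normalized) of each of the 214 tested miRNAs against its mean control signal (log2 of intensity units), with miR-199b and miR-199b* as red diamonds at -2.82 and -2.95 and the median of -1.22 as a dashed line. Signals of different miRNAs are not comparable as amounts, and the offset of 20 reduces the changes of dim miRNAs.

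The size of the fall depended on how the arrays were scaled. Under 10 treatments of the signal, the arms were lower after knockdown in 9. With the positive control probes as the reference of each array, the log2 change was -1.85 ± 0.101 (SE) for mmu-miR-199b and -1.97 ± 0.105 for mmu-miR-199b*. With the 75th percentile as the reference it was -0.896 ± 0.125 and -1.02 ± 0.127, and here 9.81% of all miRNAs were called lower, both arms included, from which likewise nothing is read. The exception was scale normalization with signals under 0.5 set to 0.5 and no offset, where mmu-miR-199b was at 0.513 ± 0.521 and mmu-miR-199b* at 0.298 ± 0.521 and the median of all miRNAs at 1.90. Relative to that median the arms were lower in all 10, by -1.63 to -0.934 for mmu-miR-199b and -1.75 to -1.02 for mmu-miR-199b*. In 7 of the 10 each arm was among the 4 largest falls. No scaling with the offset, the 75th percentile and the positive control probes differ only by a constant per array. Their ranks and values relative to the median are therefore equal by construction, so these treatments are not independent of each other. The arms ranked 16 and 13 with no scaling, no offset and a floor of 0.5. They ranked 11 and 10 with processed signals of single probes, and 54 and 43 with scale normalization and that floor.

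**Figure D4:**
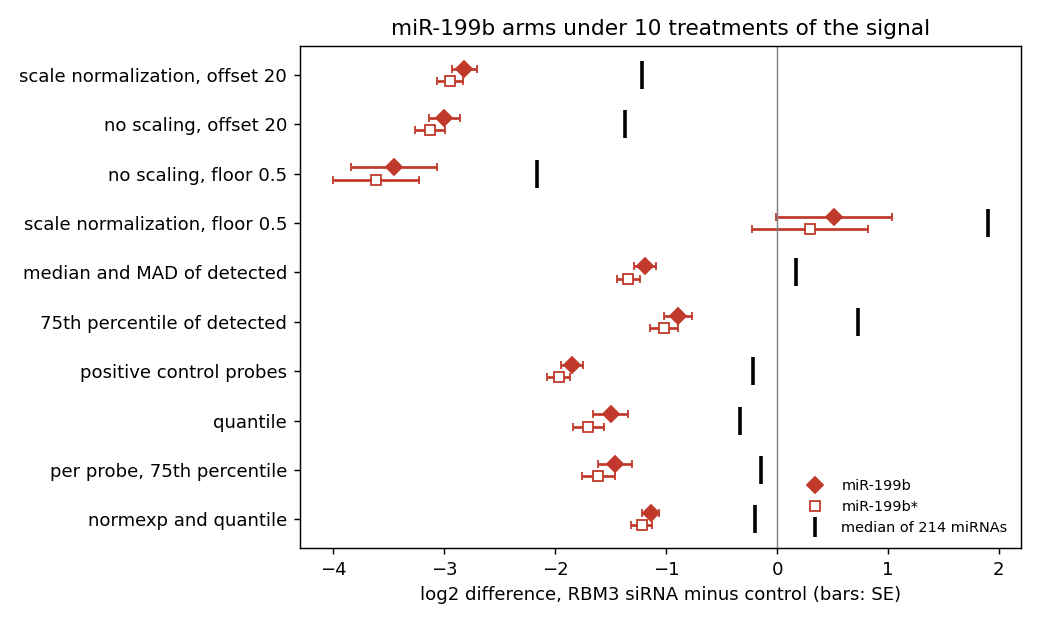
Log2 difference between RBM3 siRNA and control arrays for miR-199b (filled diamonds) and miR-199b* (open squares), with bars for the standard error from limma, under 10 treatments of the signal, and the median of 214 miRNAs as a black bar. The arms lie left of the median in each row and left of 0 in 9 of 10.

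The arms of miR-199b changed almost equally. Within an array the signal of mmu-miR-199b* was 1 and 1.02 times that of mmu-miR-199b in control cells and 0.893 and 0.905 times that after knockdown. These ratios compare different probes, so only their shift between groups has a meaning. The ratio was lower on both knockdown arrays than on both control arrays. The log2 change of the star arm minus that of the other was -0.125, and -0.142 to -0.108 with each array left out. This gap was not tested. It is small beside the fall of either arm. A small gap was favoured by the choice of a hairpin with both arms among the largest falls.

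Of the 103 hairpins with a starred and an unstarred name on the array, 6 had both arms detected on every array. In the other 5, the changes of the arms were farther apart, by 0.323 to 2.24 on the log2 scale with a median of 0.596. miR-9, a miRNA of neural progenitors, was the closest of them in the size of its fall, with -2.17 for the unstarred arm and -1.76 for miR-9*. The widest gap was that of miR-99b, with -2.07 for the unstarred arm and 0.168 for miR-99b*, whose signals were only 21.2 to 23.1 on the 4 arrays. In each of these 5 the unstarred arm fell more on this scale, whereas in miR-199b the star arm did. Neither trait was particular to miR-199b once hairpins with an arm not detected on some arrays are counted. miR-455 and miR-455* changed by -2.06 and -2.07, and miR-674* fell more than miR-674, with -1.45 against -0.628. With no scaling and no offset the gaps of miR-31 and miR-22, -0.026 and -0.0601, were smaller than that of miR-199b, -0.171. On that scale the gap of miR-9 was 0.209, close in size to that of miR-199b, so the distance from the other 5 depends on the scale. There miR-322* fell more than miR-322 as well, from signals of 4.82 and 7.93 to 3.98 and 1.01. The signals of miR-99b* and miR-322* are near or below the offset of 20, which reduces their changes, and these gaps are a description of 6 hairpins only. The hairpin of miR-199b was chosen with both arms known to be among the largest falls, which favours a small gap between them. Nothing is read from its comparison with the other 5.

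**Figure D5:**
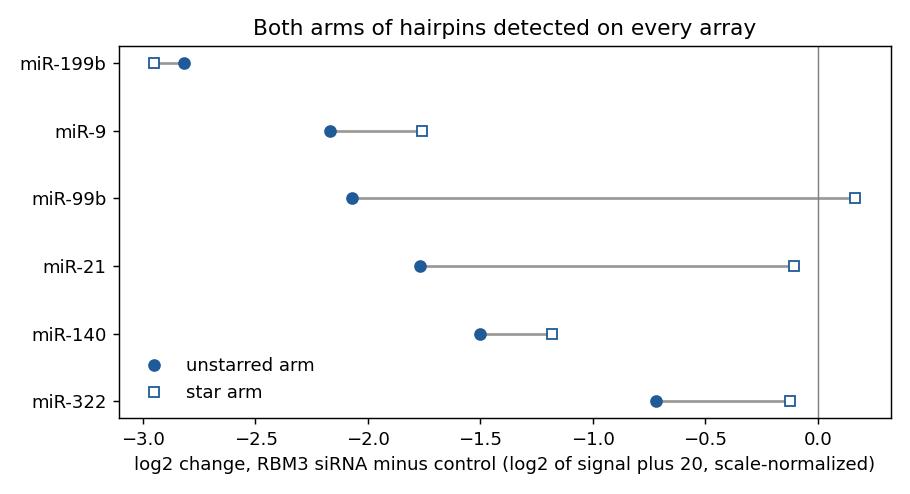
Log2 change (RBM3 siRNA minus control, log2 of signal plus 20, scale-normalized) of the unstarred arm (filled circles) and the star arm (open squares) of the 6 hairpins with both arms detected on every array. The arms of miR-199b are 0.125 apart, those of the other 5 hairpins 0.323 to 2.24. The hairpin of miR-199b was chosen with both arms among the largest falls, so the comparison is no test.

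The pattern over the 4 arrays most like that of mmu-miR-199b was that of mmu-miR-199b*, at a Euclidean distance of 0.128 between centred log2 values, out of 129 candidates detected on every array. Next came miR-125a-5p at 0.147 and miR-125b-5p at 0.293. For mmu-miR-199b* the order after mmu-miR-199b was miR-125b-5p at 0.184 and miR-125a-5p at 0.275. miR-125a-5p gave signals of 380 and 454 in control and 45.2 and 35.8 in knockdown cells, and miR-125b-5p 4862 and 5584 in control and 521 and 460 in knockdown cells. In these 4 miRNAs control array 2 was the brighter control and knockdown array 2 the dimmer knockdown array. The brighter control array 2 is not particular to them. Over the 130 miRNAs detected on every array, the median ratio of array 2 to array 1 was 1.13 in control cells. In knockdown cells this median was 0.993, so a dimmer knockdown array 2 was not general. Single miRNAs went either way there, as miR-93 went from 155 on knockdown array 1 to 150 on knockdown array 2, and miR-9 from 80.1 to 83.6. The likeness rests on 4 arrays and mainly on the size of the fall.

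Since miR-199 and miR-214 are best known from mesenchyme and fibroblasts, a list of 10 other miRNAs found in such cells was read beside them. miR-143 and miR-145, which mark smooth muscle and fibroblasts, were at background like miR-214, with mean signals of -3.02 and -13.6 in control cells. The other 8 were tested and all 8 were called lower, beside 77.1% of all 214 miRNAs. In a fit of only the miRNAs detected on every array, 111 of 130 were called lower. Their median log2 change was -1.84, against -1.22 for all 214 miRNAs and -1.70 for the 130 detected on every array, as these 8 were. Among them miR-21, an abundant miRNA in tumour cells, went from 15520 and 17380 in control to 3826 and 3950 in knockdown cells. miR-152 fell most on the log2 scale, at -2.40, from 429 and 502 to 62.2 and 59.1. Neither reached the change of mmu-miR-199b or mmu-miR-199b*, but as the members were chosen for their large fall, nothing is read from this. Most of the list consists of miRNAs that many cell types express.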

How the data were processed

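Small RNA of 4 samples was hybridised to Agilent mouse miRNA arrays with 1 colour. Spot intensity was computed by the authors in Feature Extraction (version 10.1.1.1). The deposited table holds the total signal per miRNA plus 20, in intensity units, with no scaling between arrays, and spot files hold background-subtracted intensity and detection flags. The study's methods name scale normalization, a detection filter and a paired limma fit.

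Here log2 of the total signal plus 20 was scale-normalized over 567 mouse miRNAs, and the 214 detected on at least 1 array were fitted with limma 3.58.1 in R 4.3.3, with the replicate number as a block, adjusted by Benjamini-Hochberg at 0.05. The scaling multiplied the log2 values of an array by 0.984 to 1.01. The members, lists and settings were chosen with earlier results of these data known. The labels do not say whether replicates were separate cultures, so p-values measure the spread between these arrays only, whose small number limits the precision. Scripts were tested on simulated data.

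Named miRNAs were the members, their relatives on the array, a mesenchymal list, hairpins with both arms, and for each member the 3 nearest patterns over the arrays. A ranking by signal was left out, since signals of different probes are not comparable. Marker lists covered neural, mesenchymal, muscle, blood, epithelial and liver miRNAs, and the mesenchymal one (miR-143, miR-145, miR-199a-5p, miR-214) had 0 of 4 detected. Alternatives changed the scaling, the offset, the probe summary, the background correction, the filter and the block, or left out an array. Coordinates are those of the RefSeq tables.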

Additional observations from a re-analysis of the deposited data

How the results depend on the processing

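The number of arrays and the brightness of the knockdown arrays limit these values. No value for mmu-miR-214 was computed, since it was detected on no array. The arms were lower in every setting run except scale normalization with a floor of 0.5 and no offset, where mmu-miR-199b was at 0.513 and mmu-miR-199b* at 0.298, with 19 miRNAs called lower and 131 higher against 165 and 38 in the fit reported. Relative to the median miRNA mmu-miR-199b was at -1.39 there, and the arms were -0.215 apart. In this order of mmu-miR-199b and mmu-miR-199b*, the changes were -3.00 and -3.13 with no scaling, and -3.45 and -3.62 with no scaling and a floor of 0.5 (relative to the median -1.29 and -1.46, and -0.171 apart). With the median and median absolute deviation of detected miRNAs they were -1.19 and -1.34 (relative -1.36 and -1.51), with 54 called lower and 96 higher. With the 75th percentile they were -0.896 and -1.02, with 21 lower and 140 higher, and with the positive control probes -1.85 and -1.97, with 107 lower and 77 higher. Quantile normalization gave -1.50 and -1.70 (relative -1.17 and -1.36, and -0.195 apart), with 103 lower and 51 higher. Processed signals of single probes gave -1.46 and -1.61 (relative -1.32 and -1.47, and -0.153 apart), with 64 lower and 67 higher. Normexp gave -1.14 and -1.22 (relative -0.934 and -1.02, and -0.0838 apart), with 119 lower and 51 higher. With detection on every array the relative values were -1.12 and -1.25, with 111 lower and 14 higher, and with no filter -2.83 and -2.96, with 176 lower and 52 higher; both change which miRNAs set the median. The cause of the other shifts was not tested.

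With each array left out, in a fit with no block, the change of mmu-miR-199b ran from -2.94 to -2.72 and that of mmu-miR-199b* from -3.05 to -2.83, relative to the median from -1.73 to -1.52 and from -1.84 to -1.65. The gap between the arms ran from -0.142 to -0.108, and 161 to 167 miRNAs were called lower and 35 to 40 higher; the lone array of a group was assumed to vary like the others. Deviations of arrays that share a number had a correlation of -0.33 over the tested miRNAs, so the data give no sign of the pairing that the fit reported takes from the study's methods. With no replicate block 164 were called lower and 39 higher, and with the numbers crossed, a pairing added after seeing the data, 164 and 40.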
